A study of Mus musculus with 3 samples.

Results

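The enzymes and regulators that make sterols and fatty acids were read in BMMCs, mast cells raised in culture from bone marrow. The set holds 35 genes, chosen by name for their place in these pathways and not by any measured value, out of 31069 gene names on the array. Earlier results of these data were known when the set was chosen. Where a gene had several probes, the one with the highest mean signal was used, and each gene was then read by 1 spot per array. All 35 were found and were well above background on all 3 arrays, so no member was lost to the filter on dim probes.

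Total RNA came from BMMCs of male C57BL/6 mice that were 12 weeks old and lacked Pafah2, a phospholipase that frees oxidised fatty acyl chains from membrane lipids. The Pafah2 deficiency is shared by every array, with no wild-type cells among them. 1 array was hybridised with RNA of cells given vehicle (DMSO), 1 with RNA of cells given 300 nM omega-3 epoxides (2 parts of 17,18-EpETE to 3 parts of 19,20-EpDPE), and 1 with RNA of cells given GW9662 (0.5 µM), which blocks PPAR gamma, a nuclear receptor for fatty acid derivatives. Treatment lasted 12 h. There were no replicate arrays, so no test was possible and the spread between cultures is unknown. The only error that could be measured is that among copies of a probe on an array, whose SD for a log2 ratio was 0.0821 for the epoxide-labelled array over vehicle, 0.0818 for the GW9662-labelled array over vehicle and 0.0786 for the treated arrays against each other. This technical SD covers spot error alone.

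The treatments of the treated arrays are uncertain. In the authors' value table the epoxide column matches the scanner file of the GW9662 sample at 100% of spots, and the GW9662 column matches the epoxide scanner file at 100%. Arrays are named here by the sample their scanner file is attached to, and where the table is right the names of the treated arrays change places. Mast cell markers were well above background on all arrays (12 of 12). So were 3 of 5 macrophage markers, 2 of 6 neutrophil markers on the array and 2 of 3 T cell markers (Cd3e and Cd4). Of the markers of lipid-making cell types, neither hepatocyte marker (Alb, Apoa1) was above background on any array, and of the adipocyte markers Adipoq and Cfd were not either, while Plin1 was on the vehicle array only.

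Cells make cholesterol from acetyl-CoA through mevalonate, farnesyl diphosphate, squalene and lanosterol, and they make palmitate from the same acetyl-CoA through malonyl-CoA. Most of these enzymes are transcribed under SREBP factors, membrane-bound proteins that the escort SCAP carries from the endoplasmic reticulum to the Golgi for cleavage when sterols are scarce, while INSIG proteins hold SCAP back when sterols are plentiful. In mast cells, cholesterol-rich membrane domains take part in signalling by the IgE receptor. Some of the desaturases and elongases of the set supply the polyunsaturated fatty acids from which lipid mediators are made.

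Many, but not all, reference promoters of the set hold a sequence feature that the choice of genes did not use. RefSeq promoter sequences (GRCm38.p6) were found for 27 of the 35 genes, 33 promoters in all, and the 250 bases before the start were searched on both strands. The NF-Y box CCAAT, bound by a factor that works beside SREBP, was found in 63.6% of the members' promoters (21 of 33) and in 33.8% of all 32851 promoters. The sterol regulatory element core TCACNCCAC was found in 1 of 33, that of Hmgcs1 (3.03%), against 1.05% of all promoters. The PPAR response element, searched as a pair of AGGTCA repeats with 1 base (N) between them, was found in no member promoter and in 0.0335% of all. These are matches of letters in a window and were not tested as binding sites. The list of all promoters was not limited to genes measured on the arrays.

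3 promoters are shown, that of Hmgcs1 because it holds both the core and CCAAT boxes, and those of Mvd and Insig1 because these genes had the lowest ratios on the epoxide-labelled and GW9662-labelled arrays. Capitals mark CCAAT or its reverse ATTGG and, in Hmgcs1, the core TCACCCCAC. The Hmgcs1 window (chr13:119690101-119690350, plus strand) has 3 boxes, that of Mvd (chr8:122443423-122443672, minus strand) has 2 and that of Insig1 (chr5:28071162-28071411, plus strand) has 1.
Hmgcs1: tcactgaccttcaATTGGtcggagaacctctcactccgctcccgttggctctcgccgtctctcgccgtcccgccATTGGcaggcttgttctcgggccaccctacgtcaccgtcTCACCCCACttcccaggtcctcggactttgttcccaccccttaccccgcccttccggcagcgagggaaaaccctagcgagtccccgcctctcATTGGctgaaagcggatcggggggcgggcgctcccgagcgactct
Mvd: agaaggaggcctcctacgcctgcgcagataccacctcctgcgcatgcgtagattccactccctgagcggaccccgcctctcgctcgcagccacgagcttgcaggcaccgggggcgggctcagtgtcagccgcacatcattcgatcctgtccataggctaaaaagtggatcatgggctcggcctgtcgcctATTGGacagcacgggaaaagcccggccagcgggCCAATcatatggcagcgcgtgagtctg
Insig1: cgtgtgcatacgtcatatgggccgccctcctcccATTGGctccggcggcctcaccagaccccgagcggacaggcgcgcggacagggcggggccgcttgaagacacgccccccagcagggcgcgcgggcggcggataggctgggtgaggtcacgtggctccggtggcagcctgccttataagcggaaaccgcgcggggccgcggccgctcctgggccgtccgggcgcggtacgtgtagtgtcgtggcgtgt

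The levels of the 35 genes hardly differed between the arrays. A level is the log2 signal minus log2 of the 75th percentile of that array. From its lowest to its highest array, a member spanned between 0.02 and 0.36 on the log2 scale, with a median of 0.13. For 31 of 35 members (88.6%) the whole span was under 1.2-fold, a log2 difference of 0.26. The same was true of 62.8% of the 15698 genes measured on all arrays (median span 0.20) and of 75.5% of the genes at or above the median signal (median span 0.17). The epoxide-labelled array was the lowest of the 3 for 25 members, and the vehicle array was the highest for 17. These counts were not made for all genes, so whether they are particular to the set is not known. Of all genes measured, 61.1% were lower on the epoxide-labelled array than with vehicle, and 61.1% were lower than on the GW9662-labelled array. In RNA of a whole culture, fewer cells of a type and less RNA per cell cannot be told apart.

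**Figure D1:**
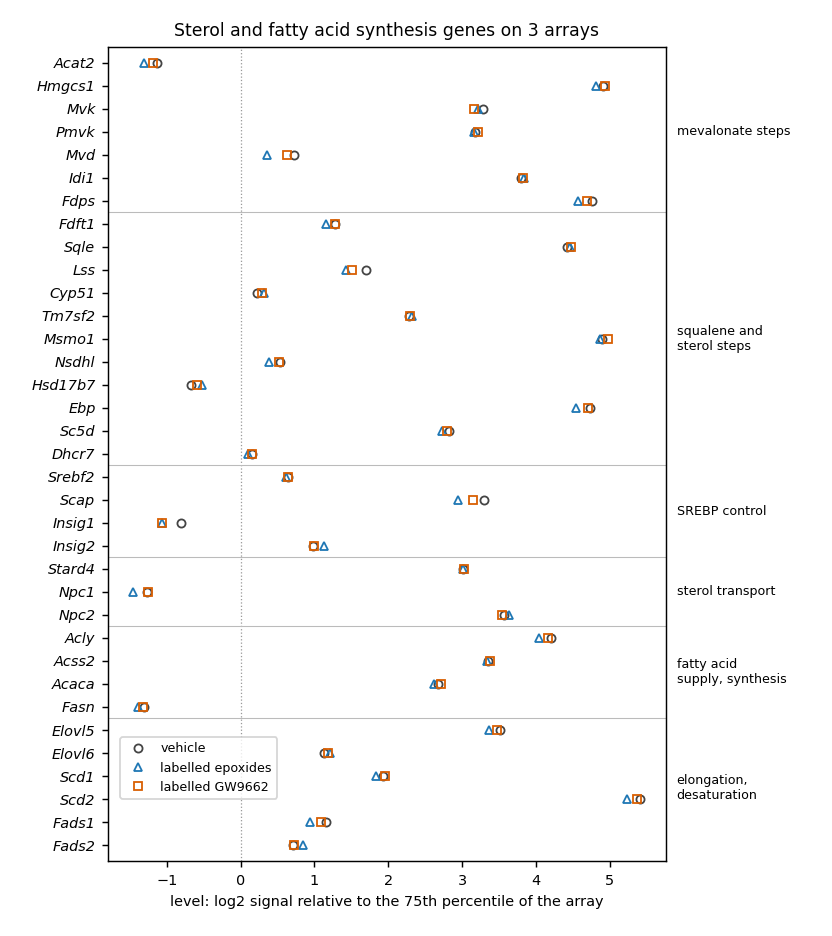
Level of each sterol and fatty acid synthesis gene (log2 signal against the array's 75th percentile, x axis) on the vehicle array (circles), the epoxide-labelled array (triangles) and the GW9662-labelled array (squares), with genes grouped by role and 1 array per group. Levels of different genes come from different probes and are not comparable with each other; within a gene the symbols lie close together, with the widest span, 0.36, in Mvd.

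The first comparison asked whether the synthesis genes respond to omega-3 epoxides. No member was 1.5-fold or 2-fold higher or lower on the epoxide-labelled array than with vehicle. Of the 35 members, 26 had a ratio below 0, and the median log2 ratio was -0.08, between -0.36 and 0.15. Among all 15812 genes measured on both arrays the median was -0.07 and 61.1% lay below 0. The backgrounds for the larger calls were 0.215% of genes 2-fold higher, 2.07% 2-fold lower, 1.34% 1.5-fold higher and 8.84% 1.5-fold lower. With a limit of 1.2-fold, 4 members (11.4%) were lower and 0 were higher, where 25.6% of all genes were lower and 7.74% higher. More than 2 technical SDs separated 10 members (28.6%) from 0, against 52.9% of all genes. Of the brighter genes, those whose signal was at or above the median, 17.0% were 1.2-fold lower and 44.7% were past 2 technical SDs. Of the 29 members among them, 3 were 1.2-fold lower. The share of members below 0 (74.3%) was above that of all genes, while their shares past these limits were under it.

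The 4 genes were Mvd, Scap, Insig1 and Lss. Insig1 and Lss lay just past the limit, a log2 difference of 0.26. Mvd, which decarboxylates mevalonate diphosphate to the first isoprenoid unit, had levels of 0.72 (vehicle), 0.36 on the epoxide-labelled array and 0.63 on the GW9662-labelled array, and its ratio of -0.36 (1.28-fold) was the lowest of the set. Scap, the sterol-sensing escort of SREBP, had 3.29, 2.95 and 3.15 in the same order, a ratio of -0.34. Lss, the cyclase that forms lanosterol, had 1.69, 1.42 and 1.51, a ratio of -0.27. In these 3 genes the vehicle array was the highest and the epoxide-labelled array the lowest. Insig1, the sterol-induced retention protein, had levels of -0.80, -1.07 and -1.06, a ratio of -0.27, so both treated arrays lay below vehicle by almost the same amount. Of the 35 members 18 were read in rows 181 to 400 of the 532 rows of the array, the stretch in which probe copies disagreed most, and their median was -0.09, against -0.07 for the 17 read elsewhere. Scap, Insig1 and Lss are among the 18. Fads1, a desaturase, lay just short of the limit at -0.22. The probes of these genes are at chr8:124957750-124957809 (Mvd), chr9:110287280-110287339 (Scap), chr10:76015992-76016051 (Lss) and chr5:28404246-28404305 (Insig1) in mm9, the build of the files. Which exon or UTR they lie in was not analysed here.

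The ratios of the epoxide-labelled array moved with the base composition of the probes. Across the 35 members, which share the same pair of arrays, Pearson's r between the ratio and the share of G and C bases was -0.64, and across all genes it was -0.48. The median of all genes went from 0.09 for probes with 35% to under 40% G and C to -0.34 for probes with 55% to under 60%, and Mvd (55%) and Scap (53.3%) have the most G and C of the members' probes. After removal of a quadratic GC and signal trend, the ratio of Mvd was -0.07, that of Scap -0.05, that of Insig1 -0.13 and that of Lss -0.17. The lowest members were then Elovl5, a fatty acid elongase, at -0.27, the 1 member past 1.2-fold with this change, and Acly, the citrate lyase, at -0.25, both read by probes with 35% G and C. With rows 181 to 400 left out as well, Acly was read by its other, dim probe and turned to 0.49, the 1 member then 1.2-fold higher. That probe (level -3.95 with vehicle, 55% G and C) had a ratio of -0.006 before the trend was removed.

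**Figure D2:**
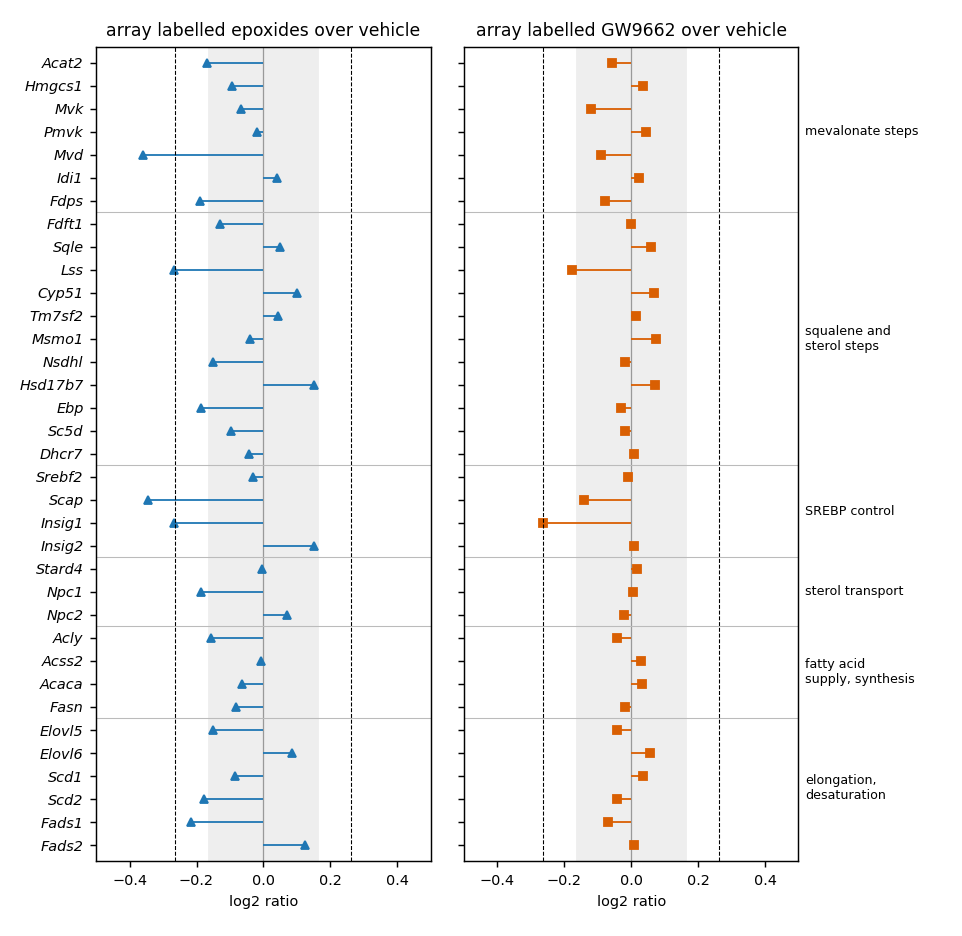
Log2 ratio of each member over vehicle on the epoxide-labelled array (left) and the GW9662-labelled array (right), 1 array per group, without error between cultures. The grey band spans 2 technical SDs on either side of 0 and the dashed lines mark 1.2-fold. On the left Mvd, Scap, Insig1 and Lss lie past the lower line, and on the right Insig1 alone reaches it.

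By role, the 7 genes of the mevalonate steps had a median ratio of -0.09 on the epoxide-labelled array, with 6 below 0. Of all genes measured, 61.1% lay below 0. Hmgcs1, the synthase that makes HMG-CoA, had levels of 4.91 with vehicle, 4.81 on the epoxide-labelled array and 4.94 on the GW9662-labelled array. The files place its probe on an unplaced part of chromosome 13. Idi1, the isomerase of isopentenyl diphosphate, had 3.80, 3.84 and 3.83, and was the 1 gene of this group above vehicle. Fdps, which makes farnesyl diphosphate, had 4.77, 4.58 and 4.69, but its only probe is placed on chromosome 10 (chr10:93242421-93242480) by the files, and whether it reads a related copy was not tested. Acat2, the cytosolic thiolase that starts the route, had a ratio of -0.17, and the kinases Mvk and Pmvk had -0.07 and -0.02.

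The 11 squalene and sterol enzymes had a median of -0.04, with 7 (63.6%) below 0 and 4 above, against 61.1% of all genes below 0. Sqle, the squalene epoxidase that is a control point of the route, had levels of 4.42, 4.47 and 4.47, a ratio of 0.05. Cyp51, the lanosterol demethylase, had 0.22, 0.32 and 0.29, and Msmo1, which removes the next methyl groups, had 4.90, 4.86 and 4.98. Dhcr7, which reduces 7-dehydrocholesterol to cholesterol, had 0.15, 0.11 and 0.16. Each of these 4 genes stayed within 0.11 on the log2 scale over the arrays, less than 2 technical SDs. Ebp, the sterol isomerase, had 4.73, 4.55 and 4.70, and its ratio of -0.19 lay outside 2 technical SDs (0.164). With quantile normalization or cyclic loess it was -0.07, and after removal of the GC and signal trend it was 0.01, all inside that limit. The remaining members of this group, Fdft1, Tm7sf2, Nsdhl, Hsd17b7 and Sc5d, had ratios of -0.13, 0.04, -0.15, 0.15 and -0.10. The Fdft1 probe (chr14:19364899-19364958) lies far from the gene's other probe (chr14:63764562-63764621), which was not above background. Whether the Hmgcs1 and Fdft1 probes read related copies was not tested.

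Of the SREBP regulators, Srebf2, the SREBP that drives the sterol genes, had levels of 0.65, 0.61 and 0.64, and Insig2, the constitutive relative of Insig1, had 0.98, 1.13 and 0.99. The dimmer probe of Srebf2 had ratios of -0.16 on the epoxide-labelled array and -0.23 on the GW9662-labelled array, the latter past 2 technical SDs (0.164), beside -0.03 and -0.01 by the probe used. Among sterol carriers, Stard4, a cytosolic sterol transporter, had a ratio of -0.004. Npc1 and Npc2, which move cholesterol out of lysosomes together, had -0.19 and 0.07.

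The 4 genes of fatty acid supply and synthesis all had ratios below 0 on the epoxide-labelled array, with a median of -0.07 and none past 2 technical SDs. Of all genes measured, 61.1% lay below 0. After removal of the GC and signal trend, Fasn was at 0.07, Acaca at -0.07, Acss2 at -0.13 and Acly at -0.25. Fasn, the fatty acid synthase, had levels of -1.31, -1.39 and -1.32. Acaca, the acetyl-CoA carboxylase that makes malonyl-CoA, had 2.68, 2.61 and 2.71. Acly, which makes cytosolic acetyl-CoA from citrate, had 4.20, 4.05 and 4.16, and Acss2, which makes it from acetate, had 3.35, 3.34 and 3.38. In all 4 the epoxide-labelled array was the lowest, by at most 0.16. Of the 6 elongases and desaturases, Scd2, a stearoyl-CoA desaturase, had levels of 5.41, 5.24 and 5.37, and its relative Scd1 had 1.93, 1.84 and 1.96. Fads1, the delta-5 desaturase of polyunsaturated fatty acids, had 1.16, 0.94 and 1.09. Fads2, the delta-6 desaturase, had a ratio of 0.13 by the probe used, which carries a cDNA accession, and -0.03 by the probe with its RefSeq accession. The elongases Elovl5 and Elovl6 had -0.15 and 0.08.

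**Figure D3:**
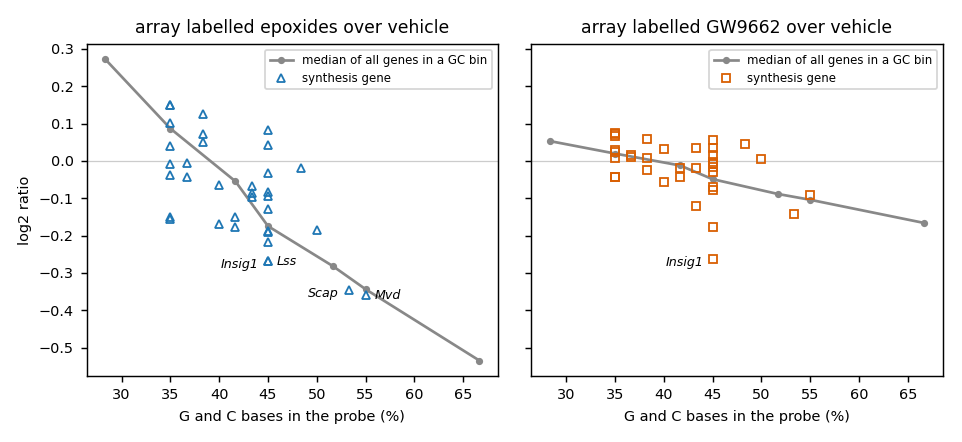
Log2 ratio over vehicle (y axis) against the GC percentage of the probe (x axis) for each synthesis gene (open symbols), with the median of all genes in each of 7 GC bins (grey line), for the epoxide-labelled array (left) and the GW9662-labelled array (right). Mvd and Scap, the low genes at high GC on the left, lie close to the grey line, and Insig1 lies below it in both panels.

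The second comparison asked whether the genes differ when PPAR gamma is blocked. On the GW9662-labelled array the set differed little from vehicle. The median log2 ratio of the 35 members was -0.002, with 17 above and 18 below 0, and their interquartile range was 0.07. Among all 15795 genes the median was -0.02, 57.8% lay below 0 and the interquartile range was 0.16. No member was 1.5-fold or 2-fold higher or lower (background 0.355% 2-fold higher, 0.469% 2-fold lower, 0.696% 1.5-fold higher and 1.15% 1.5-fold lower). With the limit of 1.2-fold, 1 member was lower and 0 were higher, against 6.2% and 2.88% of all genes. That gene was Insig1 at -0.26, which lies on the limit (0.26).

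Only 2 members (5.71%) differed by more than 2 technical SDs, Insig1 and Lss (-0.18), where 21.4% of all genes and 7.66% of the brighter genes did. Of the brighter genes 0.956% were 1.2-fold lower, and of the 29 members among them 0 were. Insig1 is dimmer than that median signal and is not among the 29. Scap came next at -0.14, and Mvk had -0.12. After removal of that trend, Insig1 was at -0.23 and Lss at -0.15. Insig1 and Lss have 1 probe each, and both probes lie in rows 181 to 400. These values therefore could not be read outside those rows. The 18 members read in rows 181 to 400 had a median of -0.03 on the GW9662-labelled array, and the other 17 had 0.01. They also share the vehicle array with the ratios of the epoxide-labelled array, so the low values of Insig1 in both comparisons are not separate readings of vehicle. The members farthest above vehicle were Msmo1 (0.07), Hsd17b7 (0.07), Cyp51 (0.07), Sqle (0.06) and the elongase Elovl6 (0.06), all inside the spot error. Of the 11 squalene and sterol enzymes, 6 were above 0 and 5 (45.5%) below, where 57.8% of all genes were below.

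**Figure D4:**
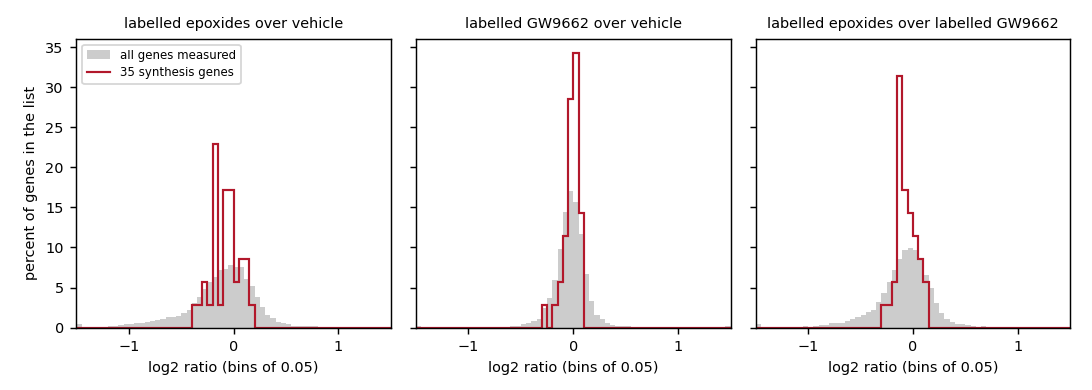
Share of genes (percent, y axis) by log2 ratio in bins of 0.05 (x axis; values past the ends are put in the end bins) for all genes measured (grey) and for the 35 synthesis genes (red line), in each of the 3 comparisons. The synthesis genes lie near the middle of the grey distribution, with medians of -0.08, -0.002 and -0.08 against -0.07, -0.02 and -0.06 for all genes.

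The third comparison set the treated arrays against each other, and shares its arrays with the first and second. The members had a median of -0.08 for the epoxide-labelled array over the GW9662-labelled array, with 26 of 35 below 0 and a range from -0.27 (Mvd) to 0.14 (Insig2). All 16044 genes had a median of -0.06, with 61.1% below 0. No member reached 1.5-fold or 2-fold (background 0.206% 2-fold higher, 0.954% 2-fold lower, 0.947% 1.5-fold higher and 4.79% 1.5-fold lower). Only Mvd was past 1.2-fold, 1 of 35 lower against 18.9% of all genes, and 0 were higher against 5.33%. Pearson's r between these ratios and the share of G and C bases was -0.57 across the members and -0.41 across all genes. After removal of the GC and signal trend, no member was past 1.2-fold, with Mvd at -0.06 and Insig2 at 0.02. Only 3 members (8.57%) differed by more than 2 technical SDs, against 44.9% of all genes and 36.1% of the brighter genes. Of the brighter genes 10.04% were 1.2-fold lower, and 1 of the 29 members among them was. Insig1, low on both treated arrays, differed by -0.006 between them.

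Several genes were read by more than 1 probe, which gives a check within the array. Of the 12 members with at least 2 probes above background on all arrays, the probes shared a direction in 8 for the epoxide-labelled array over vehicle, with a median spread of 0.15 between probes. They shared it in 6 for the GW9662-labelled array over vehicle, with a median spread of 0.09, and in 5 for the treated arrays against each other, with a median spread of 0.11. For the rest of these 12 genes the sign of the ratio depended on the probe read. Some of these ratios lay inside the spot error, such as those of Stard4 on the GW9662-labelled array (0.02 and -0.07). The same counts were not made for all genes with several probes. Nsdhl, a sterol dehydrogenase, had -0.15 by its brightest probe and 0.40 by a dimmer one on the epoxide-labelled array. Hsd17b7, a ketosteroid reductase of the sterol route, had 0.15 and -0.30. The second probe of Acaca, which the files place on chromosome 12 while the probe used is on chromosome 11, gave -0.03 beside -0.07, and whether it reads a related copy was not tested. That of Pmvk gave -0.05 beside -0.02, and that of Mvk -0.26 beside -0.07. 

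A second list of 46 genes of the same pathways, among them SREBP proteases, sterol sensors, further elongases and lipid enzymes, gave 37 genes measured on the epoxide-labelled array and vehicle. None was 1.5-fold higher or lower there (background 1.34% and 8.84%), 2 were 1.2-fold higher and 7 lower (background 7.74% and 25.6%), and the median was -0.03. The farthest from 0 were Acsl3, an acyl-CoA synthetase, at 0.48, Slc25a1, the mitochondrial citrate carrier, at -0.44, Elovl1, an elongase of very long chains, at -0.35, and Tecr, an enoyl reductase of elongation, at -0.34. Acsl3 and Elovl1 were read in rows 181 to 400. Srebf1, the SREBP that drives fatty acid genes, had levels of -1.86 with vehicle, -1.91 on the epoxide-labelled array and -1.87 on the GW9662-labelled array. Mbtps1, the first protease to cut SREBP, had 3.05, 3.27 and 3.06. On the GW9662-labelled array the list had a median of -0.01 over 37 genes, with 2 genes 1.2-fold higher, the desaturase relative Scd4 (0.49) and the cholesterol exporter Abca1 (0.35), and 0 lower (background 2.88% and 6.2%). The other 2 farthest from 0 there were Acsl3 at 0.20 and Fads3 at -0.19. Scd4, Abca1 and Acsl3 were read in rows 181 to 400. For the treated arrays against each other, 2 of 38 were 1.5-fold lower on the epoxide-labelled array, near the background of 4.79%. They were Gpam, which starts glycerolipid synthesis, at -0.73, and Scd4 at -0.64, both dim and read in rows 181 to 400, followed by Slc25a1 and Elovl1 at -0.29 each.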

How the data were processed

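Total RNA (200 ng per labelling, per the labels' protocols) was read on 3 one-colour Cy3 arrays with probes of 60 bases and Agilent Feature Extraction 11.5.1.1, per the submitters' processing notes. The deposited gProcessedSignal is an intensity, background-subtracted and detrended within the array per the file headers. The authors' value table holds a linear ratio, the signal over the 75th percentile of the array (quotient constant within 0.001).

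Spots marked as outliers (221 to 251 per array, none of a member) were dropped, probe copies averaged, and log2 signals were set against the 75th percentile. Probes were named through RefSeq accessions (28330 of 39429) or by the file. Probes count as measured when well above background on both arrays. Technical SDs are medians over 219 probes with at least 5 copies. On 1 array 52.3% to 54.6% of 43020 spots were above background. With 1 array per group nothing was tested, and the number of arrays limits the precision.

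Alternatives used limma 3.58.1 in R 4.3.3 (normexp with offset 50, quantile, cyclic loess). Rows left out are 20-row bands where 2% or more of copies lay 2-fold from the median of their probe. All 35 members and 46 further pathway genes are named by role or as the 4 farthest from 0, and Srebf1 and Mbtps1 were added for their role. Calculations were tested on simulated data. Members, lists, limits and alternatives were chosen with earlier results of these data known.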

Additional observations from a re-analysis of the deposited data

How the results depend on the processing

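No member was 2-fold higher or lower in any comparison under any alternative run, nor at 1.5-fold with the main processing. The authors' value table turns the labels of the treated arrays round: with its columns as labelled, the member median is -0.003 for epoxides and -0.083 for GW9662 over vehicle, and 0.079 for epoxides over GW9662. Without rows 181 to 400 and after removal of the GC and signal trend, the median for the epoxide-labelled array over vehicle was 0.0040 over the 20 members still measured. With every other alternative the 3 medians moved by no more than 1 technical SD. Quantile normalization gave -0.02 with 20 of 35 members below 0, cyclic loess -0.03 with 20, and the trend removed alone -0.02 with 21, beside -0.08 with 26. The medians of all genes moved with them, to 0.008, -0.009 and 0.004 from -0.07. With the trend removed, 26 members moved by more than 1 technical SD on the epoxide-labelled array and 1 on the GW9662-labelled array. No paired analysis was possible because each group has 1 array.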
